A study of Mus musculus with 25 samples.

Results

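Nr4a1, Nr4a2 and Nr4a3 are the 3 genes of the NR4A family of orphan nuclear receptors. They were taken by symbol from a table of 47069 genes, in which each symbol had 1 row, and all 3 passed the minimum mean that left 19141 genes for testing. The samples were whole pituitaries of 25 hypogonadal mice, which are homozygous for the hpg deletion in the GnRH gene and make no GnRH of their own. That deletion was carried by the placebo animals too, so each group lacked endogenous GnRH. The groups were 5 females given saline (animals 1 to 5), 6 females given GnRH (animals 6 to 11), 6 males given saline (animals 12 to 17) and 8 males given GnRH (animals 18 to 25). Per the labels' protocols, the dose was 1 µg into the peritoneum each day for 10 days, and tissue was taken 1 h after the last dose. Age and strain background are not given in the labels used here, and 1 time after injection and 1 dose were sampled.

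NR4A receptors bind DNA as monomers at an element called the NBRE, and as dimers at related paired elements. Their ligand pocket is filled by bulky side chains, and their activity is set largely by how much of the protein is made, which is why their transcripts are followed as immediate early genes: cyclic AMP, calcium and MAP kinase signals induce them within an hour or so without new protein synthesis. Nr4a1 (Nur77) and Nr4a2 (Nurr1) can pair with retinoid X receptors, whereas Nr4a3 (Nor1) is known not to. In the pituitary, Nur77 is known as the mediator of corticotropin-releasing hormone at the Pomc gene of corticotropes, and in cultured gonadotrope cells GnRH induces NR4A genes.

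In the GRCm38 build (mm10) with GENCODE M21, Nr4a1 (ENSMUSG00000023034) lies on chr15:101254269-101274795 on the plus strand. Nr4a2 (ENSMUSG00000026826) lies on chr2:57106830-57124003 on the minus strand. Nr4a3 (ENSMUSG00000028341) lies on chr4:48045153-48086447 on the plus strand. All 3 are annotated as protein-coding, and no other annotated gene overlaps them.

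The promoters of the 3 genes are shown because the cyclic AMP route into NR4A genes runs through CREB, which binds the cyclic AMP response element (CRE) or its half-site. Sequences are from RefSeq (GRCm38.p6), 5′ to 3′ on the strand of the gene, and end at the base before the RefSeq start site. Capitals mark the half-site CGTCA read on either strand. For Nr4a3 the first 98 of the 250 bases are printed, since the rest lies in an exon of the GENCODE annotation.
Nr4a1, chr15:101266596-101266845, plus strand: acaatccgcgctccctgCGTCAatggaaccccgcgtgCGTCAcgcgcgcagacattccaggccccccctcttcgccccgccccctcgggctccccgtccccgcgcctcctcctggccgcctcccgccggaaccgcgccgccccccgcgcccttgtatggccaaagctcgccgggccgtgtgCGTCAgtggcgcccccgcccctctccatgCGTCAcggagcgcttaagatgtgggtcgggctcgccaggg
Nr4a2, chr2:57124004-57124253, minus strand: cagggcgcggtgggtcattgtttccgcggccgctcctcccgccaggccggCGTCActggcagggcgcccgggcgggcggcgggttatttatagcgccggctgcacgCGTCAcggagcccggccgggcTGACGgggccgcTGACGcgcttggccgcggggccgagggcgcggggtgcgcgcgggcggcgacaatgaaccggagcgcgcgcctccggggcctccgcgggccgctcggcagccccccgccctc
Nr4a3, chr4:48045055-48045152, plus strand: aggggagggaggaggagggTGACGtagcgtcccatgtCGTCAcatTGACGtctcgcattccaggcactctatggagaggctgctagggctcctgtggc

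Each of the 3 promoters held 4 CRE half-sites within 250 bases of the RefSeq start site. The Nr4a1 window lies inside the gene as GENCODE M21 places it, and 3 of the 4 half-sites of Nr4a3 lie before its GENCODE start. Counted from the RefSeq start site, the half-sites began at -233, -213, -69 and -40 in Nr4a1, at -200, -144, -123 and -111 in Nr4a2, and at -231, -213, -205 and -147 in Nr4a3, the last of these outside the stretch printed. Of 32851 promoters of the same length, 17.8% held at least 1 half-site and 0.137% held 4 or more. The 3 promoters were rich in G and C, at 74.4%, 80% and 63.6% against a median of 52.4%, and among the 8815 promoters between 60% and 80% the shares were 27.4% and 0.386%. The full palindromic CRE TGACGTCA, which contains the half-site on both strands, was found in none of the 3 windows and in 1.55% of all promoters. The AP-1 site TGANTCA (6.75% of all promoters), the NBRE AAAGGTCA (1.34%) and the CArG box of serum response factor (1.47%) were found in none of the 3 either. The EGR site GCGNGGGCG was found once each in Nr4a1 and Nr4a2, and in 4.70% of all promoters. A MEF2 site was found once in Nr4a2, and in 2.92% of all promoters. Both strands were searched for each motif. These matches describe letters in a window and say nothing of occupancy in these pituitaries.

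Values are regularized log2 (rlog) values as the authors deposited them, in which library size has been taken out and low genes are shrunken towards their mean. Differences are log2 differences on that scale, folds are computed from them, and the depth of the libraries is unknown. Correlations between any 2 libraries lay between 0.992 and 0.998. Pituitary hormone transcripts led the table, with Gh in place 1 of all genes by mean, Pomc in place 2 and Prl in place 5, while Gnrh1 lay between 3.69 and 3.99 in all libraries. Two-sided tests were made with limma over all 25 libraries, with Benjamini-Hochberg adjustment across the 19141 genes tested. Each limma p rests on the spread between these animals, 1 library each. That spread is pooled over the 4 groups and moderated towards that of genes of like level. Male GnRH animals 18 and 21 lay above the other 6 males given GnRH for all 3 NR4A genes, so results that rest on them are given with and without them. The pair was named from an earlier account of these data. No placebo animal was left out to match, so NR4A differences without the pair lean towards smaller values.

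Nr4a3 was the NR4A gene that differed most with GnRH. It rose 2.72-fold in males, had a 2.00-fold female difference that did not pass over all genes, and rose 2.33-fold when the effect was averaged over the sexes. Nr4a1 and Nr4a2 passed in neither sex and not in the average. The groups are whole pituitaries, so a change in the number of cells of a type and a change in RNA per cell cannot be told apart in any of these values.

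In placebo females, Nr4a3 stood at 9.13, 8.98, 8.04, 8.62 and 8.75 in animals 1 to 5. In females given GnRH it ran from 8.73 in animal 10 over a median of 9.80 to 10.61 in animal 9. Of the 6 treated females, 5 lay above every placebo female, and animal 10 lay inside the placebo range. The means were 8.71 ± 0.42 (SD, n = 5) and 9.71 ± 0.67 (SD, n = 6), a log2 difference of 1.00 (SE 0.31, 95% interval 0.36 to 1.65) with adjusted p = 0.271 by limma. The unadjusted limma p was 0.00356, and the difference was the 11th largest of all genes tested. An exact two-sided permutation test on Nr4a3 alone gave p = 0.0216, where 462 relabellings allow 0.00216 at the smallest. Without placebo animal 3, which had the lowest value, that exact p was 0.0524.

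In placebo males, Nr4a3 ran from 8.10 in animal 14 over a median of 8.46 to 9.29 in animal 17. In males given GnRH it ran from 9.52 in animal 24 over a median of 9.79 to 11.22 in animal 21. The 2 groups did not overlap: 8 of 8 treated males lay above every placebo male, as was so for 0.345% of all genes tested (0.528% in females, where Nr4a3 was not among them). The means were 8.59 ± 0.48 (SD, n = 6) and 10.03 ± 0.67 (SD, n = 8). The log2 difference of 1.44 (SE 0.28, 95% interval 0.87 to 2.02) had adjusted p = 0.0108 by limma and was the 6th largest of all genes tested. The exact permutation test gave p = 0.000333, the smallest that 3003 relabellings allow. Of all genes, 0.449% were called higher in males and 0.0993% in females.

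The male values of Nr4a3 fell into a narrow set and a high pair. Animals 18 and 21 stood at 10.93 and 11.22, and the other 6 lay between 9.52 and 9.84, with a mean of 9.68 ± 0.15 (SD, n = 6). Those 6 were all above every placebo male. Without the pair the male difference was 1.09 with adjusted p = 0.0522, just over the threshold, and the exact permutation p was 0.00216. The male call was also lost with no filter on low genes, at 1.44 with adjusted p = 0.0510, and held in each of 14 fits that left out 1 male, with adjusted p from 0.00786 to 0.0451.

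Averaged over the sexes, Nr4a3 rose by 1.22 on the log2 scale (SE 0.21, 95% interval 0.79 to 1.65, adjusted p = 0.00109 by limma), and treated animals exceeded all placebo animals of their own sex in 13 of 14 cases. In this comparison 1.42% of all genes were called higher and 0.287% lower. Without animals 18 and 21 the averaged difference was 1.05 with adjusted p = 0.000941. Whether the male and female effects on Nr4a3 differ was tested directly: the male effect was larger by 0.44 (SE 0.42, 95% interval -0.42 to 1.30, adjusted p = 0.999 by limma). By limma 0% of all genes passed in that comparison, with 0 calls in each other setting run. There 529 genes (2.76%) had an unadjusted p under 0.05, a smaller share than chance gives at that p. A difference between the sexes was thus not detected, and the interval allows a male effect larger by over 1 on the log2 scale. Without animals 18 and 21 the male effect on Nr4a3 was larger by 0.089.

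**Figure D1:**
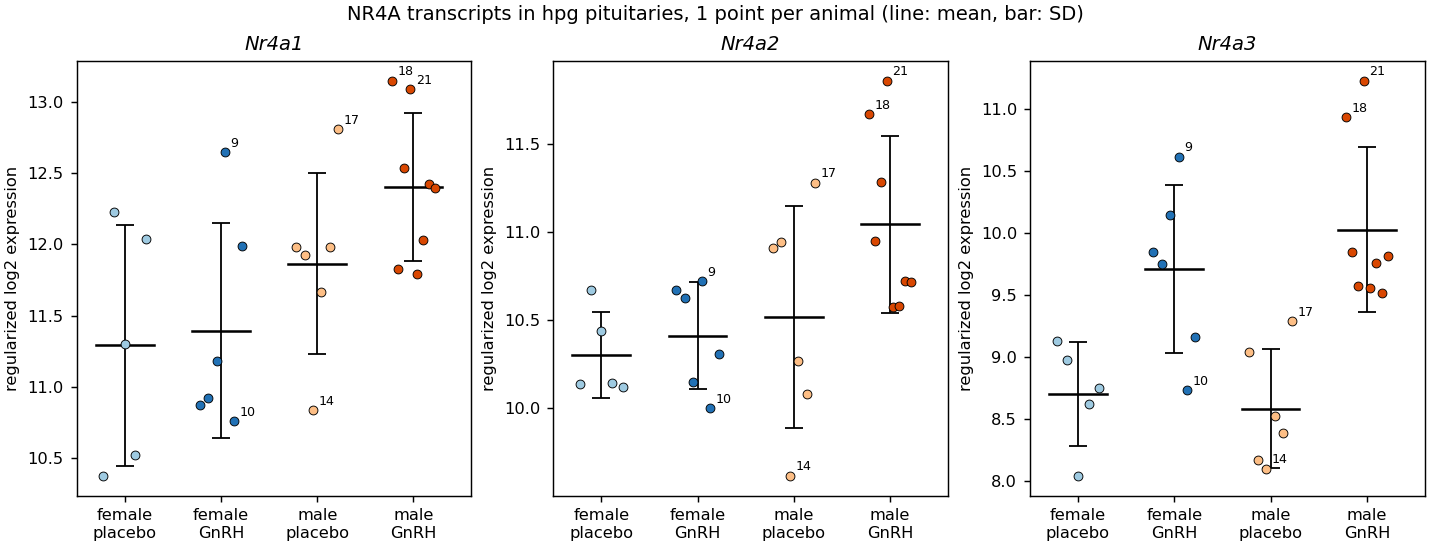
Regularized log2 values of Nr4a1, Nr4a2 and Nr4a3 (vertical axes, each with its own range) in the 4 groups of sex and treatment, with 1 point per animal, the group mean as a line and the SD as a bar. Numbers mark animals 9, 10, 14, 17, 18 and 21. For Nr4a3 the 8 males given GnRH all lie above the 6 placebo males, with animals 18 and 21 highest, whereas the groups overlap for Nr4a1 and Nr4a2.

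Nr4a1, the family member tied to Pomc control in corticotropes, overlapped between treatments in both sexes. In placebo females it stood at 10.37, 12.23, 11.30, 10.52 and 12.04 in animals 1 to 5, and in females given GnRH it ran from 10.75 over a median of 11.05 to 12.65. In placebo males it ran from 10.83 over a median of 11.95 to 12.81, and in males given GnRH from 11.79 over a median of 12.41 to 13.15. Of the treated mice, 1 of 6 females and 2 of 8 males exceeded all placebo animals of their sex, and the 2 males were animals 18 and 21.

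The means of Nr4a1 were 11.29 ± 0.85 (SD, n = 5) and 11.39 ± 0.76 (SD, n = 6) in placebo and GnRH females, and 11.86 ± 0.64 (SD, n = 6) and 12.41 ± 0.52 (SD, n = 8) in placebo and GnRH males. The differences were 0.10 in females (SE 0.36, 95% interval -0.64 to 0.85, adjusted p = 0.943 by limma) and 0.54 in males (SE 0.32, 95% interval -0.12 to 1.20, adjusted p = 0.894). The exact permutation p was 0.833 in females and 0.102 in males. The female sign turned in 4 of 11 fits without 1 female, those without animals 1, 4, 9 and 11 (-0.13, -0.089, -0.15 and -0.015). The intervals reach 0.85 in females and 1.20 in males, so a response of Nr4a1 is not shown to be absent.

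Nr4a2, best known from midbrain dopamine neurons, followed a like pattern. In placebo females it stood at 10.13, 10.67, 10.44, 10.14 and 10.12 in animals 1 to 5, and in females given GnRH it ran from 10.00 over a median of 10.47 to 10.72. In placebo males it ran from 9.62 over a median of 10.59 to 11.28, and in males given GnRH from 10.57 over a median of 10.84 to 11.86. The treated females spanned past the placebo females at both ends, with 1 of 6 above and 1 of 6 below all of them, and 3 of 8 treated males lay above every placebo male.

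The means of Nr4a2 were 10.30 ± 0.25 (SD, n = 5) and 10.41 ± 0.30 (SD, n = 6) in females, and 10.52 ± 0.63 (SD, n = 6) and 11.04 ± 0.50 (SD, n = 8) in males. The differences were 0.11 in females (SE 0.25, 95% interval -0.40 to 0.62, adjusted p = 0.906 by limma) and 0.53 in males (SE 0.22, 95% interval 0.08 to 0.98, adjusted p = 0.608). The male interval of Nr4a2, unadjusted for other genes, does not include 0, at an unadjusted limma p of 0.0238. That interval uses a spread pooled over the 4 groups and moderated over all genes, and the SDs of Nr4a2 were smaller in females. From the males only, the exact permutation p was 0.105. The 6 permutation tests of the family are unadjusted. Without placebo male 17, the highest of its group for all 3 genes, the exact p fell to 0.0451 for Nr4a2 and 0.0287 for Nr4a1. In 13 of the 14 permutation tests without 1 male, the exact p stayed above 0.05 for each of these genes. It reached 0.246 for Nr4a2 and 0.251 for Nr4a1.

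Without animals 18 and 21 the male differences were 0.30 for Nr4a1 and 0.29 for Nr4a2. Averaged over the sexes, the differences were 0.32 for Nr4a1 (SE 0.24, adjusted p = 0.634 by limma) and 0.32 for Nr4a2 (SE 0.17, adjusted p = 0.451).

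**Figure D2:**
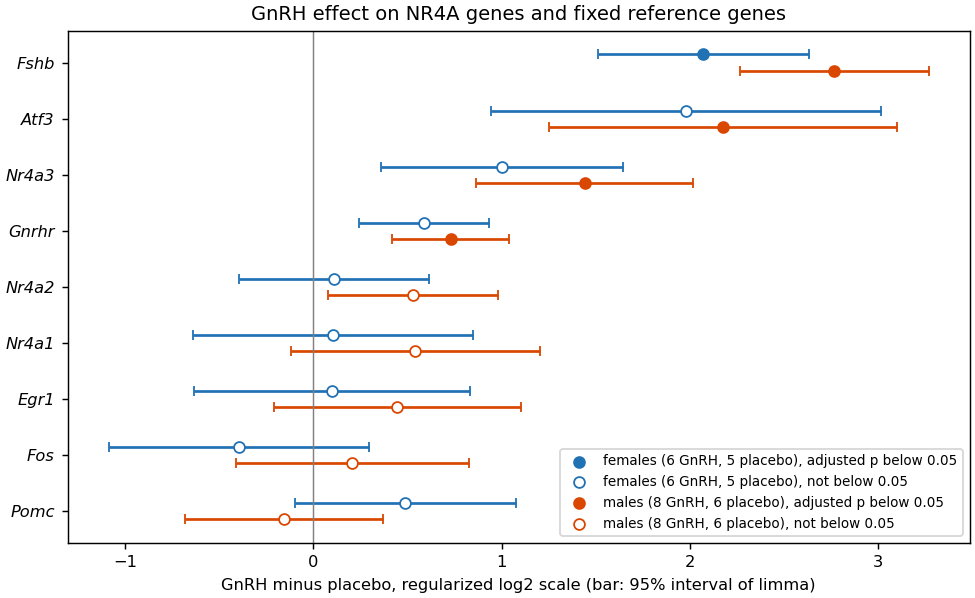
GnRH minus placebo on the regularized log2 scale (horizontal axis) with the 95% interval of limma, for the 3 NR4A genes and 6 reference genes in females and males. Filled points had an adjusted p below 0.05. Nr4a3 sits at 1.00 in females and 1.44 in males, between Atf3 and the GnRH receptor gene Gnrhr, whereas Nr4a1 and Nr4a2 sit near 0.1 in females and 0.5 in males, close to Egr1.

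The members were compared within each animal, by subtracting one rlog value from another. This takes out only an offset that acts on both genes of an animal in equal size. Nr4a3 minus Nr4a1 averaged -2.58 ± 0.96 (SD, n = 5) in placebo females and -1.69 ± 0.73 (SD, n = 6) in GnRH females, and -3.28 ± 0.41 (SD, n = 6) and -2.38 ± 0.40 (SD, n = 8) in males. With GnRH this difference was higher by 0.90 in females and by 0.90 in males. Among males 6 of 8 treated mice exceeded all placebo mice, and among females 3 of 6 did.

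Nr4a3 minus Nr4a2 was higher with GnRH by 0.89 in females and 0.91 in males, with 4 of 6 females and 7 of 8 males above every placebo animal. Nr4a2 minus Nr4a1 moved by 0.01 in females and -0.01 in males. The GnRH differences of the single genes were larger in males by 0.44, 0.42 and 0.44 for Nr4a1, Nr4a2 and Nr4a3 (adjusted p = 0.999 for each by limma). The contrasts between members were not tested.

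**Figure D3:**
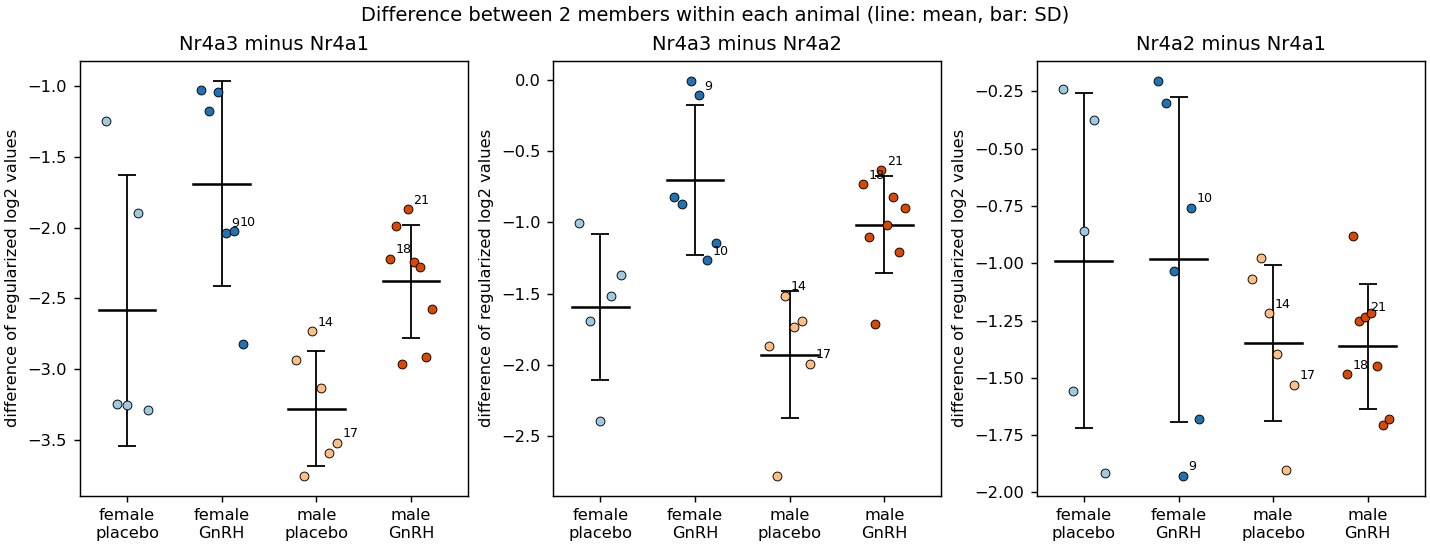
Difference between the regularized log2 values of 2 members within each animal (vertical axes, each with its own range) in the 4 groups, with 1 point per animal, the mean as a line and the SD as a bar. Nr4a3 minus Nr4a1 and Nr4a3 minus Nr4a2 sit higher by about 0.9 with GnRH in both sexes, and Nr4a2 minus Nr4a1 has nearly equal means with and without GnRH.

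Levels were set side by side per length, as the mean rlog value minus the log2 of the exonic length in kilobases (3509, 4059 and 5987 bases for Nr4a1, Nr4a2 and Nr4a3). On that scale Nr4a1 averaged 10.00, Nr4a2 8.60 and Nr4a3 6.76, and 25 of 25 animals had the order Nr4a1, Nr4a2, Nr4a3. Nr4a3 was thus the least abundant member with and without GnRH, at 7.45 ± 0.67 (SD, n = 8) per length in GnRH males against 9.02 ± 0.50 for Nr4a2. The exonic length joins all annotated transcripts, and the isoforms used in the pituitary are not known here.

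The group means of Nr4a3 ran in the order placebo males, placebo females, GnRH females and GnRH males. The 2 placebo groups lay within their spread of each other, as did the 2 GnRH groups, and the step between placebo and GnRH was larger than the SDs. For Nr4a1 and Nr4a2 the order was females before males, with placebo below GnRH in each sex, and no neighbouring pair differed by more than the larger of its SDs.

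Males against females within placebo showed differences of 0.57 for Nr4a1 (adjusted p = 0.999 by limma), 0.21 for Nr4a2 (0.999) and -0.12 for Nr4a3 (0.999), in a comparison that called 0.047% of all genes. Within GnRH, males stood higher by 1.01 for Nr4a1 (SE 0.32, unadjusted p = 0.00412, adjusted p = 0.700) and by 0.63 for Nr4a2 (SE 0.22, unadjusted p = 0.00783, adjusted p = 0.738). That comparison called 0.0522% of all genes. Nr4a3 differed by 0.32 between the sexes within GnRH (adjusted p = 0.935), and by -0.032 without animals 18 and 21. Without that pair the differences within GnRH were 0.77 for Nr4a1 and 0.39 for Nr4a2. Fos and Egr1 had differences of like size to Nr4a1 within GnRH, at 1.18 (adjusted p = 0.325) and 0.96 (adjusted p = 0.726).

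Animals of 1 group differed widely in NR4A transcripts. The SD within groups was 0.68 for Nr4a1, 0.46 for Nr4a2 and 0.59 for Nr4a3. Genes of like level, within 0.5 of the mean of each member, had median SDs of 0.109, 0.111 and 0.121, and 99.7%, 99.6% and 99.8% of them had a smaller SD than the member. Fos, Egr1 and Atf3 shared this wide spread, at 0.63, 0.67 and 0.95.

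The same animals were often extreme for all 3 genes, though not among the placebo females. Animal 10 was the lowest and animal 9 the highest of the GnRH females for each member. Animal 14 was the lowest and animal 17 the highest of the placebo males for each member. Animals 18 and 21 were the highest pair of the GnRH males for each member, at 13.15 and 13.09 for Nr4a1 and 11.67 and 11.86 for Nr4a2. The lowest GnRH male was animal 22 for Nr4a1 and Nr4a2 and animal 24 for Nr4a3. Among placebo females the lowest were animals 1, 5 and 3 for Nr4a1, Nr4a2 and Nr4a3, and the highest animals 2, 2 and 1. Animal 1 was thus lowest for Nr4a1 and highest for Nr4a3. The mean of the mitochondrial transcripts was the lowest of its group in animals 9, 17 and 21, at 15.84, 15.86 and 15.90 beside group medians of 16.27, 16.02 and 16.05. The mean of the blood genes, whose globin transcripts were depleted from the libraries, was the lowest of its group in animals 9 and 21 (10.99 and 10.71) and the highest in animal 17 (12.47). The part of either list in the NR4A values was not tested.

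Over all 25 animals, after the mean of each group was subtracted, Nr4a1 and Nr4a2 correlated at r = 0.64, Nr4a2 and Nr4a3 at 0.66, and Nr4a1 and Nr4a3 at 0.52. Without animals 18 and 21 these were 0.56, 0.47 and 0.39 (n = 23). They are given as descriptions, and the points of an animal share 1 library. Many other genes followed each member more closely over the 25 animals. Among the genes tested, Nr4a2 held place 30 and Nr4a3 place 169 by r with Nr4a1. By r with Nr4a2, Nr4a3 held place 33 and Nr4a1 place 39, and by r with Nr4a3, Nr4a2 held place 217 and Nr4a1 place 1088. Correlations over all 14 treated animals are given only in the closing section, beside the settings that change them. No conclusion is drawn from them, because animals 18 and 21 lie high together in that set.

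**Figure D4:**
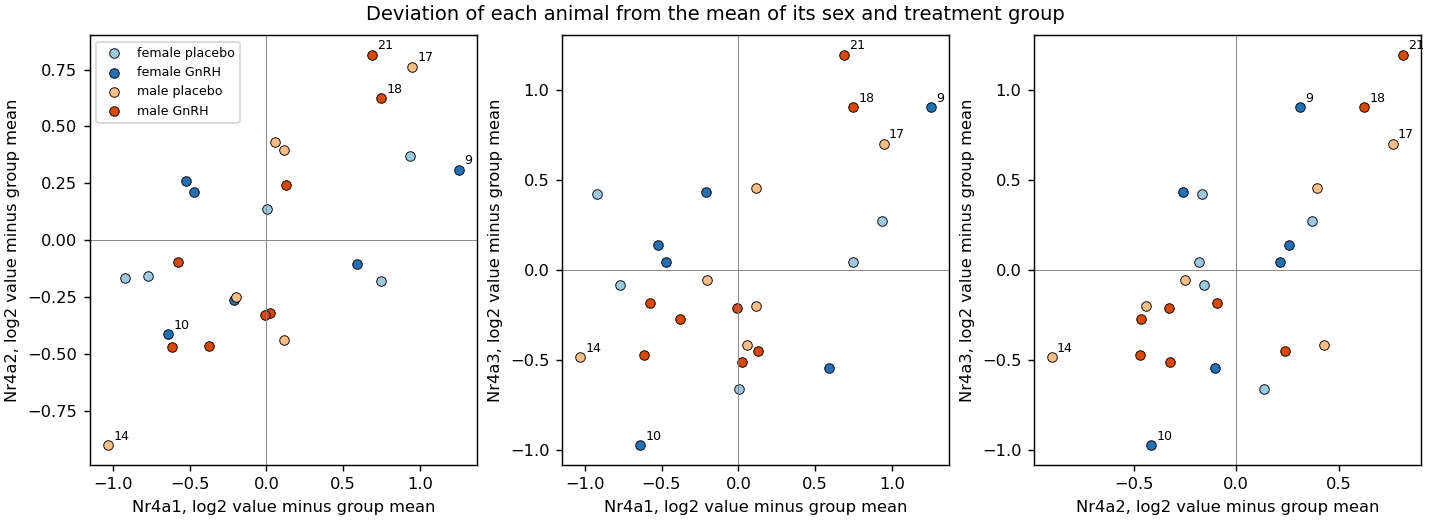
Deviation of each animal from the mean of its own sex and treatment group, on the regularized log2 scale, for each pair of NR4A genes, with 1 point per animal coloured by group. Animals 18, 21, 9 and 17 lie in the upper right of all 3 panels and animals 10 and 14 in the lower left, with r = 0.64, 0.52 and 0.66 from left to right over 25 animals.

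Within treated animals, 18 relations were computed: the 3 pairs of members, and each member with Fshb (the FSH beta subunit), Gnrhr, Atf3, Fos and Pomc. Over the 12 treated animals other than 18 and 21, centred by sex, 0 of 18 passed the adjustment. The smallest p was that of Nr4a3 with Fos, at r = -0.64 and rho = -0.61 (permutation p = 0.0400 and 0.0638, adjusted p = 0.719 and 0.533), and r = -0.64 without the 2 animals farthest from the median. The same relation had r = -0.83 in the 6 treated females (exact permutation p = 0.0431, adjusted p = 0.610), and -0.15 in the 6 treated males without the pair. In the 11 placebo animals, a set chosen after the values were seen, it had r = -0.61 and rho = -0.56 (permutation p = 0.0513 and 0.0865, adjusted p = 0.308 and 0.515), and r = -0.27 without the 2 farthest animals, so there it rests on those 2.

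Nr4a3 with Gnrhr in the 11 placebo animals had r = 0.73 and rho = 0.71 (permutation p = 0.0155 and 0.0178, adjusted p = 0.139 and 0.321), and r = 0.75 without the 2 farthest animals. Nr4a1 with Atf3 in the 6 treated males without the pair had r = 0.81 and rho = 0.89 (exact permutation p = 0.0181 and 0.0333, adjusted p = 0.117 and 0.300). In the 6 treated females Nr4a1 with Atf3 had r = -0.18 (exact permutation p = 0.694). Nr4a2 with Fshb had r = -0.92 in those males (exact permutation p = 0.0194, adjusted p = 0.117) and r = 0.72 in the females (exact permutation p = 0.121). Nr4a1 with Fos in those 6 males had r = 0.95 and rho = 0.83 (exact permutation p = 0.0181 and 0.0583, adjusted p = 0.117 and 0.350). In these sets, which leave out animals 18 and 21, 0 of the relations named passed the adjustment over 18. In all 8 treated males, Nr4a1 with Atf3 passed it, at r = 0.95 and rho = 0.95 (exact permutation p = 0.000446 and 0.00114, adjusted p = 0.00804 and 0.0205), and that result rests on a set that holds the high pair.

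The genes most like each member were taken by Pearson's r over 25 animals after the mean of each group was subtracted, leaving out the other members. For Nr4a1 they were Sik1, a salt-inducible kinase (r = 0.82), Csrnp1, a nuclear factor (0.79), Hyal1, a hyaluronidase (0.77), Olfr1507, an olfactory receptor (0.73), and Junb of AP-1 (0.73). For Nr4a2 they were Gem, a small GTPase (0.84), Csrnp1 (0.80), the zinc-finger factor Klf4 (0.78), Mat2a, which makes S-adenosylmethionine (0.77), and the receptor Gpr3 (0.77). For Nr4a3 they were Trib1, a pseudokinase (0.90), Midn, midnolin (0.88), Fosl2 of AP-1 (0.87), Elmsan1 (0.86) and Thbs1, thrombospondin 1 (0.85).

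These r values were picked as the highest in the same animals, so they lean high by that choice. The median r over all genes tested, 0.01 for each member, is given as a description and is no test of them. Of each 5 genes, 3, 2 and 1 for Nr4a1, Nr4a2 and Nr4a3 stayed among the 5 closest without animals 18 and 21, with Sik1, Csrnp1 and Hyal1, Gem and Csrnp1, and Trib1 as those that stayed. Trib1 then had r = 0.86 and Gem 0.77. Trib1, the closest gene to Nr4a3, had GnRH differences of 0.23 in females (adjusted p = 0.695 by limma) and 0.38 in males (adjusted p = 0.618). Midn rose by 0.43 averaged over the sexes (adjusted p = 0.00772).

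The partners of NR4A receptors passed in neither sex nor in the average. Of the 3 retinoid X receptors, Rxra, Rxrb and Rxrg had differences of -0.11, 0.00 and -0.04 in females and 0.04, -0.05 and 0.02 in males. Their median was -0.04 in females and 0.02 in males, beside 0.00 in both for all genes tested, with 0 of 3 genes past the threshold by limma and 0 at an unadjusted p under 0.05 in each.

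Of 17 other orphan and lineage nuclear receptors tested, 0 passed in females or males by limma (4 and 3 at an unadjusted p under 0.05). In the average over the sexes 1 fell, and 5 had an unadjusted p under 0.05. Of all genes tested, 9.57% in females, 6.42% in males and 12.0% in the average had an unadjusted p under 0.05, and the counts of that kind given for each list are to be read against those shares. Nr5a1 (steroidogenic factor 1), the receptor that drives gonadotrope genes, fell by 0.38 averaged over the sexes (SE 0.09, adjusted p = 0.0222 by limma). Its differences were -0.36 in females and -0.40 in males. Nr5a2 (0.20 averaged, adjusted p = 0.0667) and Nr2f6 (0.15, 0.286) had positive values. Without animals 18 and 21 Nr5a2 passed too, at 0.23 averaged over the sexes (adjusted p = 0.0228). The list median was 0.05 in females and 0.02 in males, with 9 of 17 positive in each.

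Of 28 regulators upstream of NR4A transcription, such as CREB, its coactivators, MEF2 factors and their histone deacetylases, 1 rose in the average and 0 passed in either sex by limma. At an unadjusted p under 0.05 were 5 in females, 4 in males and 12 in the average. Some of those 12 were higher with GnRH and some lower. Srf (serum response factor), which binds the CArG box, rose by 0.35 averaged over the sexes (SE 0.09, adjusted p = 0.0493). Crem, which encodes cyclic AMP-responsive activators and repressors, had 0.07 in females and 0.40 in males (adjusted p = 0.880 and 0.179). The class IIa histone deacetylases Hdac5 and Hdac7 had 0.17 and 0.24 in females (adjusted p = 0.453 and 0.221) and 0.17 and 0.02 in males. The list median was -0.01 in each sex and -0.02 in the average, where 12 of 28 members had positive differences.

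Of 26 genes reported elsewhere as NR4A targets, 17 were tested, 0 passed in either sex by limma and 1 rose in the average. At an unadjusted p under 0.05 was 1 gene in each sex and 1 in the average. Star, which brings cholesterol into mitochondria for steroid synthesis, rose by 0.28 averaged over the sexes (SE 0.07, adjusted p = 0.0200), with 0.23 in females and 0.34 in males. Pomc, the corticotrope hormone gene and a known target of Nr4a1, had 0.49 in females (SE 0.29, adjusted p = 0.592) and -0.16 in males (SE 0.26, adjusted p = 0.999). Ucp2 had 0.12 in females and 0.03 in males, and Bdnf had -0.08 and 0.17. The list median was -0.01 in females and 0.03 in males, with 7 and 12 of 17 members positive, where 50.1% and 48.5% of all genes were positive.

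Of 17 other rapid genes with known CREB responses, 0 passed in females or males by limma (4 and 9 at an unadjusted p under 0.05). In the average 8 had an unadjusted p under 0.05, and 5 rose. Those that rose were Fosb of AP-1 (1.28, adjusted p = 0.0125 by limma), the synaptic gene Arc (1.33, 0.0140), the activity-dependent factor Npas4 (0.83, 0.0282), Gadd45b of the growth-arrest family (0.56, 0.00321) and Rgs2, which restrains Gq signalling (0.40, 0.0199). Fos had -0.39 in females and 0.21 in males. The list median was 0.07 in females, 0.40 in males and 0.24 in the average, and 11, 16 and 15 members were positive. Without animals 18 and 21 the male median was 0.24 and 5 members rose in the average.

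The 34 immediate early genes other than NR4A form a list that holds some of the same members. Of them, 14 in females, 24 in males and 23 in the average had an unadjusted p under 0.05 by limma. After adjustment 0 passed in females, 5 rose in males and 11 rose in the average. In males these were Homer1, a synaptic scaffold (2.03, adjusted p = 0.00246 by limma), Atf3 (2.18, 0.0172), Gadd45g (0.46, 0.00774), Btg1, which restrains growth (0.31, 0.00866), and Klf10 (0.51, 0.0189). Positive differences were seen in 29 of 34 in females, 34 of 34 in males and 33 of 34 in the average. The medians were 0.21, 0.47 and 0.33, beside values within 0.01 of 0 for all genes. Nr4a3, at 1.00 and 1.44, lay above both medians, and Nr4a1 and Nr4a2, at 0.54 and 0.53 in males, lay near the male median.

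The mean of this immediate early list lay between 8.62 and 8.89 in placebo females, 8.78 and 9.22 in GnRH females, 8.60 and 8.96 in placebo males, and 9.05 and 10.16 in GnRH males. Animal 21 was the highest of the GnRH males, animal 10 the lowest of the GnRH females and animal 14 the lowest of the placebo males. The highest GnRH female was animal 11 and the highest placebo male animal 13, where the NR4A genes had animals 9 and 17. Without animals 18 and 21, 1 gene of the list rose in males (Homer1, 1.72, adjusted p = 0.0168), 32 of 34 were positive and the median was 0.25, while 11 rose in the average. The lowest of the placebo females for the list was animal 1, which was the highest of them for Nr4a3, and the lowest of the GnRH males was animal 19. The part of the list in the NR4A values was not tested.

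**Figure D5:**
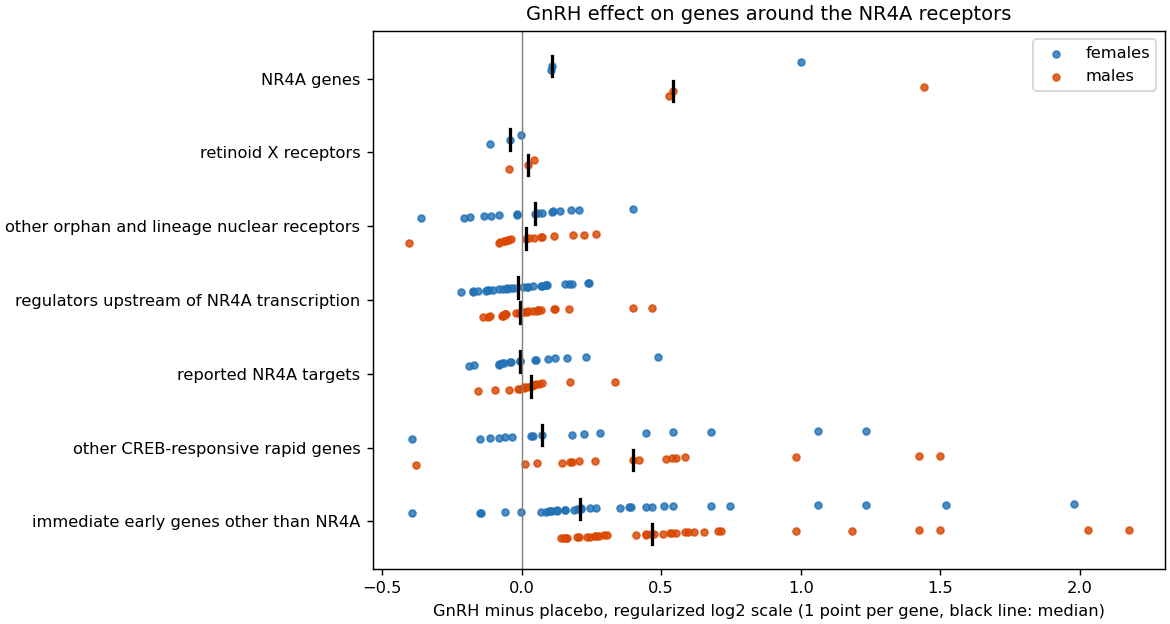
GnRH minus placebo on the regularized log2 scale (horizontal axis) for the NR4A genes and 6 gene lists around them, with 1 point per gene for females and for males and the list median as a black line. The medians of the 4 lists of receptors, regulators and targets lie within 0.05 of 0, and those of the immediate early genes at 0.21 and 0.47.

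Markers of the cells in which NR4A genes are known were looked at beside these values. Of 13 gonadotrope genes tested, 1 rose in females (Fshb, 2.07), and in males 3 rose (Fshb, 2.77, Serpine2, 0.58, and Gnrhr, 0.73) and 1 fell (Gata2, by 0.50), where 0.047% of all genes were called lower. In the average 5 rose (Fshb, 2.42, Spp1, 0.95, Gnrhr, 0.66, Serpine2, 0.48, and Lhb, 0.38) and 3 fell (Gata2, by 0.49, Nr5a1, by 0.38, and Foxl2, by 0.30), and leaving out animals 18 and 21 gave 5 and 2, with Foxl2 at -0.26 (adjusted p = 0.0540 by limma). Positive differences were seen in 7 of 13 in females, 8 in males and 8 in the average, with medians of 0.10, 0.31 and 0.27. The mean of the gonadotrope list lay between 10.30 and 10.41 in placebo females, 10.54 and 10.76 in GnRH females, 10.22 and 10.45 in placebo males, and 10.57 and 10.92 in GnRH males. Of 6 corticotrope genes, Neurod1 rose in males (0.46, adjusted p = 0.0171) and 0 passed in females, with list means from 9.03 to 9.19 and 9.12 to 9.30 in females and from 8.95 to 9.33 and 9.09 to 9.33 in males.

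Of 8 endothelial genes, 8 had positive differences in each sex and Emcn rose in males (0.27, adjusted p = 0.0416). The endothelial list mean lay between 9.19 and 9.45 in placebo females, 9.34 and 9.63 in GnRH females, 9.33 and 9.40 in placebo males, and 9.34 and 9.66 in GnRH males. Gata2, Neurod1 and Emcn missed the threshold in males without animals 18 and 21, at -0.37, 0.38 and 0.23 (adjusted p = 0.116, 0.119 and 0.226 by limma), and passed it in the average without that pair (adjusted p = 0.000458, 0.00468 and 0.00836). Of 59 genes in the other 10 lists of cell markers and mitochondrial transcripts, 0 passed in either sex or in the average by limma, with 5, 1 and 3 at an unadjusted p under 0.05. Their part in the NR4A values was not tested, and the cells that hold the NR4A transcripts cannot be told from whole tissue.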

How the data were processed

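RNA of 25 hpg pituitaries was sequenced after selection of polyadenylated RNA, and ribosomal and globin transcripts were depleted, per the labels' protocols. The deposited table holds regularized log2 values, which the authors scaled between libraries and shrank towards each gene's mean, per the name they gave the table. STAR, featureCounts, bcl2fastq and the build mm10 were used per the submitters' processing notes; versions, strand setting and gene models are not given in the labels used here, and no counts were analysed. Reads shared between related genes or strands can therefore not be traced. Shrinkage understates differences of low genes. The labels give 8 GnRH males, where the design text speaks of fewer per condition, and the labels were followed.

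Of 47069 genes, 19141 had a mean of at least 3 and were fitted with limma 3.58.1 (R 4.3.3): 1 mean per sex and treatment group, all 25 libraries, variance trend on the mean, 21 residual degrees of freedom, 6 two-sided contrasts, Benjamini-Hochberg adjustment over all genes and a threshold of 0.05. The labels name no batch. On simulated data the test recovered 88% of genes changed by 0.5 in females and 92% in males, and 100% of those changed by 1 or more, with 4.90% and 3.45% false calls. Those rates are for genes with the spread of ordinary genes, below that of the NR4A genes, and do not carry over to the members. Exact two-sided permutation tests of the 3 genes were run within each sex. Relations used 100000 permutations, or all of them for 8 animals or fewer.

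The genes named were the 3 members, Fshb, Gnrhr, Atf3, Fos, Egr1 and Pomc, up to 4 genes of each list by smallest p, and for each member the 5 genes with the highest r over group-centred values, leaving out predicted genes and pseudogenes. Arc, Klf10, Lhb, Spp1 and Foxl2 fall outside this rule and were named after their values were seen, to complete counts. A gene that the rule names is not reported here. The members and lists were chosen with earlier results of these data known. All 3 members matched RefSeq promoters (GRCm38.p6) by symbol. Alternatives covered the filter, normalization, variance model, library weights and left-out animals.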

Additional observations from a re-analysis of the deposited data

Results flagged for a closer look

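No single animal stood apart by Dixon's criterion in the 12 groups of NR4A values, a criterion that does not see a high pair such as animals 18 and 21. Among 220 groups of 55 genes named in the text, 12 held an animal whose gap to its nearest neighbour was large for the group's range. Chance flags about 1 in 20 groups, so this number is near what chance alone gives. The flags are listed as values only, and a link to the NR4A ranks of the same animals was not tested. Pomc was lowest in male GnRH animal 23, at 17.43 against 18.48 for the next. Star was highest in male GnRH animal 20, at 7.90 against 7.46. Gadd45b was lowest in male placebo animal 14, at 8.15 against 8.57, the animal that was also lowest for each NR4A gene. Gpr3 was highest in male placebo animal 17, at 4.66 against 4.26, the animal that was also highest for each NR4A gene. In female GnRH animal 10, the lowest of its group for each NR4A gene, Rgs2 and Btg1 were lowest, at 10.33 against 10.67 and 10.69 against 10.94, and Nr5a1 was highest, at 10.07 against 9.60. In male GnRH animal 19, the lowest of its group for the immediate early list, Klf10 was lowest, at 9.22 against 9.59, Spp1 was lowest, at 7.34 against 8.86, and Rxrb was highest, at 9.96 against 9.82. Lhb was lowest in female GnRH animal 9, at 10.49 against 10.94. Npas4 was highest in female placebo animal 2, at 9.67 against 8.95.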

How the results depend on the processing

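No paired analysis was possible because the animal numbers 1 to 25 are not shared between groups. Nr4a3 averaged over the sexes passed under each of 7 other settings and each of 25 fits without 1 animal. The male call of Nr4a3 was lost with no filter on low genes (1.44, adjusted p = 0.0510, where more genes are tested) and without animals 18 and 21 (1.09, adjusted p = 0.0522), and its difference between the sexes within GnRH was then -0.032. The female difference of Nr4a1 lay between -0.15 and 0.34 in the fits without 1 animal, so its sign turned. The cause of these changes was not tested.

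The exact permutation results changed side of 0.05 without some single animals: the differences lay between 0.34 and 0.73 for Nr4a1 in males, 0.35 and 0.68 for Nr4a2 in males, and 0.82 and 1.20 for Nr4a3 in females. Over the fits without 1 animal, the number of genes past the threshold lay between 4 and 67 in females (19 with all animals), between 46 and 153 in males (95) and between 8 and 17 for males against females within GnRH (10). The female count was 7, 5, 4, 12, 67 and 6 without animals 3, 5, 6, 7, 10 and 11, the male count 58, 60, 46, 153 and 63 without animals 12, 13, 14, 19 and 25, and the last count 17 without animal 10. The female and male counts were 7 and 42 with no filter, 62 and 239 with library weights, and 32 and 38 without animals 18 and 21, and the averaged count was 942 with library weights, against 327.

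Over all 14 treated animals, r was 0.61 for Nr4a1 with Nr4a2, 0.63 for Nr4a1 with Nr4a3 and 0.78 for Nr4a2 with Nr4a3, the last with adjusted p = 0.0481 for r and 0.0520 for rho (permutation tests). In males alone these were 0.86, 0.80 and 0.87 (exact permutation p = 0.00831, 0.0275 and 0.0158), and after quantile normalization 0.60, 0.62 and 0.77. The unadjusted call was lost in females alone, without animals 18 and 21, and without the 2 farthest animals, where r was 0.36, 0.37 and 0.51 for Nr4a1 with Nr4a2, 0.49, 0.42 and 0.38 for Nr4a1 with Nr4a3, and 0.66, 0.47 and 0.47 for Nr4a2 with Nr4a3. The sign turned in females alone for Nr4a1 with Atf3 (-0.18) and for Nr4a2 with Fshb (0.72), Fos (-0.47) and Pomc (-0.030), and for Nr4a3 with Fshb (0.12). It turned in males alone for Nr4a1 with Gnrhr (-0.37) and Pomc (0.058), and for Nr4a3 with Gnrhr (-0.087) and Fos (0.31). Without the 2 farthest animals it turned for Nr4a1 with Gnrhr (-0.069), and there and without animals 18 and 21 for Nr4a2 with Fos (-0.15 in both) and Nr4a3 with Fshb (0.089 in both).

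Library depth is unknown, a single dose and time were sampled, and whole tissue does not show which cells hold NR4A transcripts.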
